A study of Mus musculus with 27 samples.

Results

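The matrix metalloprotease families described here are the genes whose mouse symbol is Mmp, Adamts or Adamtsl followed by a number, or Timp1 to Timp4. They make up 51 of the 21850 genes in the deposited table, and the rule reads gene symbols only. The set comprises 23 matrix metalloproteases (MMPs), 4 tissue inhibitors of metalloproteases (TIMPs), 19 ADAMTS proteases and 5 ADAMTS-like proteins. RNA was measured by bulk RNA-seq in 27 libraries from primary mouse liver cells, 3 libraries in each of 9 conditions, to compare hepatocytes, hepatocyte organoids (HepOrgs) and periportal assembloids. All cells came from mice of C57BL/6 background and are labelled wild type, apart from 1 freshly isolated hepatocyte library (replicate 3) that has a wild-type title and an MDR2-het genotype label. It was grouped by its title.

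The 9 conditions were freshly isolated hepatocytes, HepOrgs in HM-Wnt medium for 1 or 2 weeks (7 or 14 days), HepOrgs in MM medium for 1 or 2 weeks, and homeostatic or fibrotic-like assembloids in MM medium for 1 or 2.5 weeks (7 or 18 days). HepOrgs were expanded from primary hepatocytes in HM-Wnt, and those of the MM conditions were changed to MM at passage 2. Both media share a basal medium, Wnt conditioned medium and ROCK inhibitor, and HM-Wnt additionally contains gastrin, EGF, FGF7, FGF10, HGF, RSPO1, nicotinamide, the GSK3 inhibitor CHIR and the TGF-beta receptor inhibitor A83-01. For assembloids, each well received 10 HepOrgs, 1000 dissociated cholangiocytes and either 250 (homeostatic) or 2500 (fibrotic-like) portal mesenchymal cells. The aggregates that formed were embedded in Matrigel. Mesenchymal cells carried a PDGFRα-H2B-GFP reporter and cholangiocytes a tdTomato reporter, and no immune or endothelial cells were added.

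MMPs are zinc-dependent proteases that cut collagens, other matrix proteins and cell-surface proteins, and TIMPs bind to their active site and block them. ADAMTS proteases are secreted relatives of which some cut proteoglycans such as versican, some remove the N-terminal propeptide of fibrillar collagens and others cut single blood or matrix proteins, and ADAMTS-like proteins share the ancillary domains without the protease domain and bind to the matrix. In liver, fibroblasts, stellate cells and macrophages are known sources of many of these genes, and the balance of MMPs and TIMPs is a textbook feature of scar formation and resolution.

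Of the 51 members, 34 had at least 10 counts in every library of at least 1 condition. Adamts1, Adamts6, Adamtsl5, Mmp14, Mmp15 and Timp2 reached that count in all 9 conditions. The 17 members below it were Adamts8, Adamts18, Adamts19, Adamts20, Adamtsl3, Mmp1a, Mmp1b, Mmp9, Mmp12, Mmp16, Mmp17, Mmp20, Mmp21, Mmp25, Timp1, Timp3 and Timp4.

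Timp1, Timp3 and Timp4 are listed at 0 in all 27 libraries. Each lies wholly within a synapsin gene on the opposite strand in the GENCODE annotation, Timp1 within Syn1, Timp3 within Syn3 and Timp4 within Syn2. Among all genes wholly within another gene without a shared exon, the class of Timp1, 88.7% were at 0 in all 27 libraries. In the class of Timp3 and Timp4, with exon overlap, the share was 77.3%, against 14.9% of genes that overlap no other gene. The member Mmp19, of the same class as Timp3 and Timp4, had up to 1510 counts. Whether the zeros of Timp1, Timp3 and Timp4 come from the counting or from absent RNA was not tested, and they are not read as absence here. Timp2 was the only inhibitor with counts.

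A group of 10 MMPs lies together on chromosome 9 in the order Mmp13, Mmp12, Mmp1b, Mmp3, Mmp1a, Mmp10, Mmp8, Mmp27, Mmp20 and Mmp7, within 427.1 kb (GRCm39, positions 7272514 to 7699587). The promoters of this cluster are shown because its genes Mmp3, Mmp10, Mmp13, Mmp7 and Mmp8 are described in the assembloids below, and because most of them carry a shared short motif. The windows below run from 250 bases before to 50 bases after the transcription start in RefSeq (GRCm38.p6, plus strand, 5′ to 3′), with the letters TGAGTCA or its reverse complement TGACTCA in capitals where they occur, which is the consensus site of AP-1, a transcription factor of the Fos and Jun families.
Mmp3, chr9:7445572-7445871: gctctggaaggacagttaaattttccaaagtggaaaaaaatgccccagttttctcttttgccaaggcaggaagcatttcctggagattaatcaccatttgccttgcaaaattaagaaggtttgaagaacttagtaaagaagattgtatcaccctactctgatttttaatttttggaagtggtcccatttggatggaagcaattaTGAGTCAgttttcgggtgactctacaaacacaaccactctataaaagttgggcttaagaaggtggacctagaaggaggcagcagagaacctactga
Mmp10, chr9:7502092-7502391: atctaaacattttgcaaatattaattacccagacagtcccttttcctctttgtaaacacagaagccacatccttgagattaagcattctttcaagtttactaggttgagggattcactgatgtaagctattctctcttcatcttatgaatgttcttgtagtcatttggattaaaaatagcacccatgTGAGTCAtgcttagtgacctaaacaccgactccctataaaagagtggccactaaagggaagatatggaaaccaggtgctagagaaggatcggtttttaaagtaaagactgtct
Mmp13, chr9:7272264-7272563: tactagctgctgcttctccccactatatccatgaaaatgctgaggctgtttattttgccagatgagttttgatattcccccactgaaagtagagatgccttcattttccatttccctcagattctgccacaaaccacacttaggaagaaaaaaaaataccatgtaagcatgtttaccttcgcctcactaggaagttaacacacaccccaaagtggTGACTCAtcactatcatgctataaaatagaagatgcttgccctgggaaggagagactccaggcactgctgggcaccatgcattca
Mmp7, chr9:7691840-7692139: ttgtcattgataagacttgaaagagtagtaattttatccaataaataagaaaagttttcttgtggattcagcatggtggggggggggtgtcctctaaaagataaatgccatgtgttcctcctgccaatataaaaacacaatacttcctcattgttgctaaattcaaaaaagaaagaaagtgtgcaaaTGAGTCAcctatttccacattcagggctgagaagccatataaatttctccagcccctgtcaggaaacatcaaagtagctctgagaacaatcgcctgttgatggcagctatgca
Mmp8, chr9:7558179-7558478: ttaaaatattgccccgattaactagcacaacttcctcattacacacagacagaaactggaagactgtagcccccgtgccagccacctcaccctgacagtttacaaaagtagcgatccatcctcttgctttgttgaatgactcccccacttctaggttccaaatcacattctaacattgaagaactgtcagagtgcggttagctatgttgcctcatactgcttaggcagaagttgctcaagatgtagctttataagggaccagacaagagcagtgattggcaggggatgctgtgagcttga
The site begins 46 bases before the start in Mmp3, 63 in Mmp10, 35 in Mmp13 and 63 in Mmp7, and these letters do not occur in the Mmp8 window or in that of Mmp27, which is not printed. Searched on both strands, the 7 letters occurred in a window of 7 of the 10 cluster members, namely these 4 and Mmp12, Mmp1a and Mmp1b, and in none of the windows of the 26 other members that had one (0 of 26). Across the genome 1709 of 32851 windows of the same length held them (5.2%). Windows were listed for 36 of the 51 members, and 7 of the 12 windows of the cluster held the letters, since Mmp7 and Mmp12 each have another window without them. A match describes the sequence only, and binding of a factor was not measured.

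Total counts ranged from 30289364 to 65348596 per library, with a median of 43727965. The labels do not say whether the 3 libraries of a condition came from separate animals or cultures, so p values measure the spread between these libraries. The hepatocyte marker sum was 69960 to 130900 CPM (counts scaled to 1000000 per library, here and below after TMM scaling over the 27 libraries) in fresh hepatocytes and 2834 to 100800 CPM in the cultured conditions. Homeostatic 1-week replicate 2 stood apart from all others, with 8465 genes with a count against 14016 or more elsewhere, a hepatocyte marker sum of 2834 CPM and a cholangiocyte marker sum of 5789 CPM. Fibrotic-like 1-week replicate 3 also had a low hepatocyte marker sum of 3233 CPM, and MM 2-week replicate 3 had an immune marker sum of 779.9 CPM against 7.54 and 28.3 CPM in its 2 companions. In bulk RNA, fewer cells of a type and less RNA per cell cannot be told apart.

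**Figure D1:**
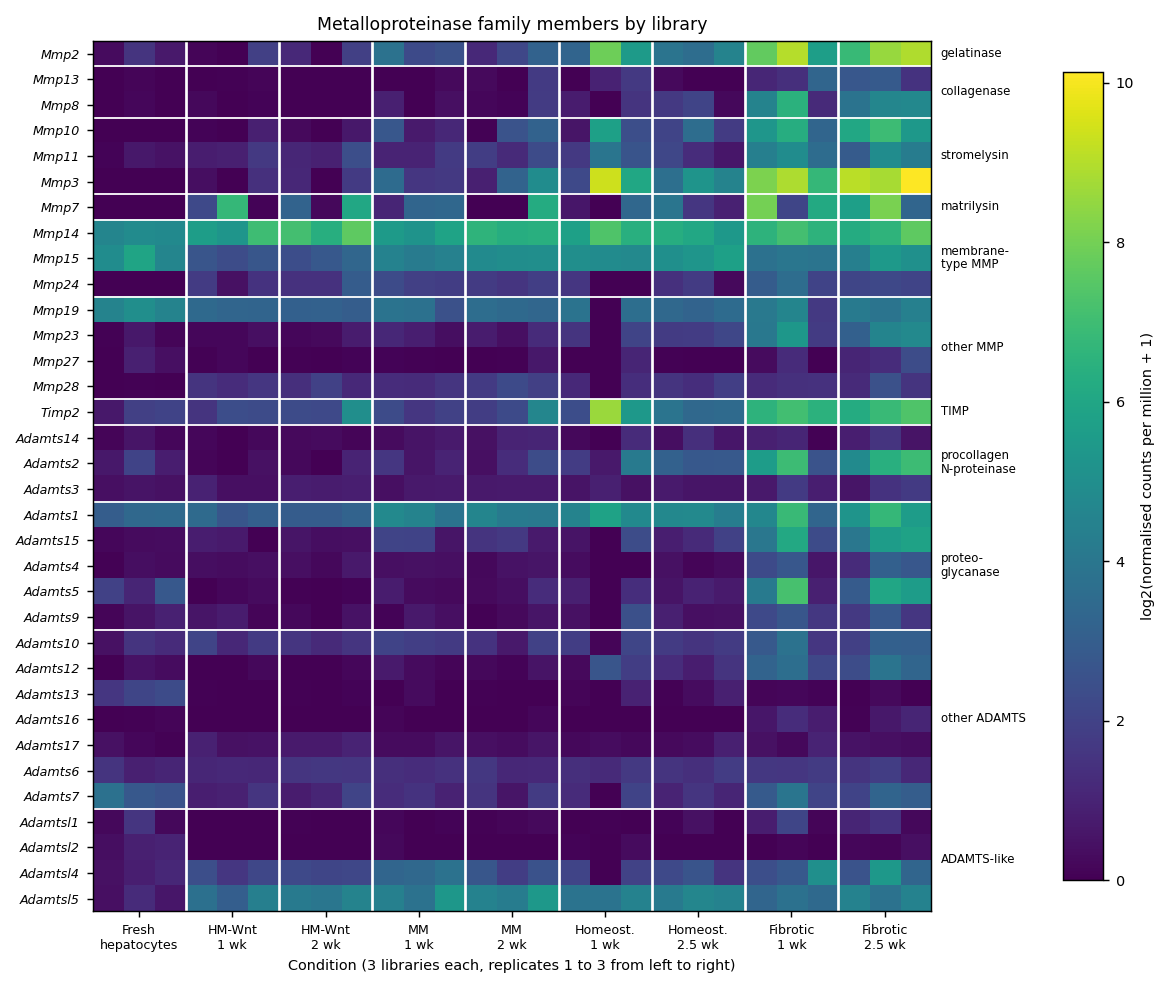
Level of the 34 members with at least 10 counts in every library of at least 1 condition (rows, grouped by role) in each of the 27 libraries (columns, grouped by condition), as log2 of CPM + 1 after TMM scaling. Brighter colours mean higher levels. Fibrotic-like assembloids are bright for Mmp2, Mmp3, Mmp10 and Timp2, and homeostatic 1-week replicate 2 shows high Mmp2, Mmp3 and Timp2 beside many members at 0.

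Levels between genes were compared per length of merged exons, as TPM from the counts and the exon length (exon TPM, mean ± SD, n = 3). Whether the counts hold reads from outside exons was not tested, so this order between genes is approximate. In fresh hepatocytes the highest were Mmp19 with 16.7 ± 2.55, Mmp15 with 16.1 ± 7.30 and Mmp14 with 10.1 ± 0.828 exon TPM, and Mmp19 and Mmp15 did not differ beyond their spread. Mmp19 lies wholly within another gene with exon overlap, and the effect of this on its count was not tested. In HepOrgs Mmp14, a membrane-type MMP that activates pro-MMP2, was highest or next to highest by the mean in all 4 conditions, from 25.5 ± 10.2 exon TPM in MM at 1 week to 87.6 ± 45.4 in HM-Wnt at 2 weeks. Mmp7, or matrilysin, an epithelial MMP, had means of 18.5 to 86.0 exon TPM but ranged from 0.181 to 233 exon TPM within HM-Wnt at 1 week, so its place in the order is not settled there. In fibrotic-like assembloids Mmp3, or stromelysin-1, had the highest mean, 918 ± 475 exon TPM at 1 week and 1644 ± 593 at 2.5 weeks. At 1 week Mmp7 was above Mmp3 in replicate 1, with 1137 against 844 exon TPM, and its mean of 541 ± 564 did not differ from that of Mmp3 beyond their spread. Mmp2, or gelatinase A, reached 430 ± 287 exon TPM at 2.5 weeks, and Timp2 118 ± 52.4. Mmp2 lies on chromosome 8 (93553902 to 93580049, GRCm39), Timp2 on chromosome 11 (118191887 to 118246566), Mmp14 on chromosome 14 (54668878 to 54682821), Mmp15 on chromosome 8 (96078895 to 96101708) and Adamts1 next to Adamts5 on chromosome 16 (85590579 to 85600009).

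**Figure D2:**
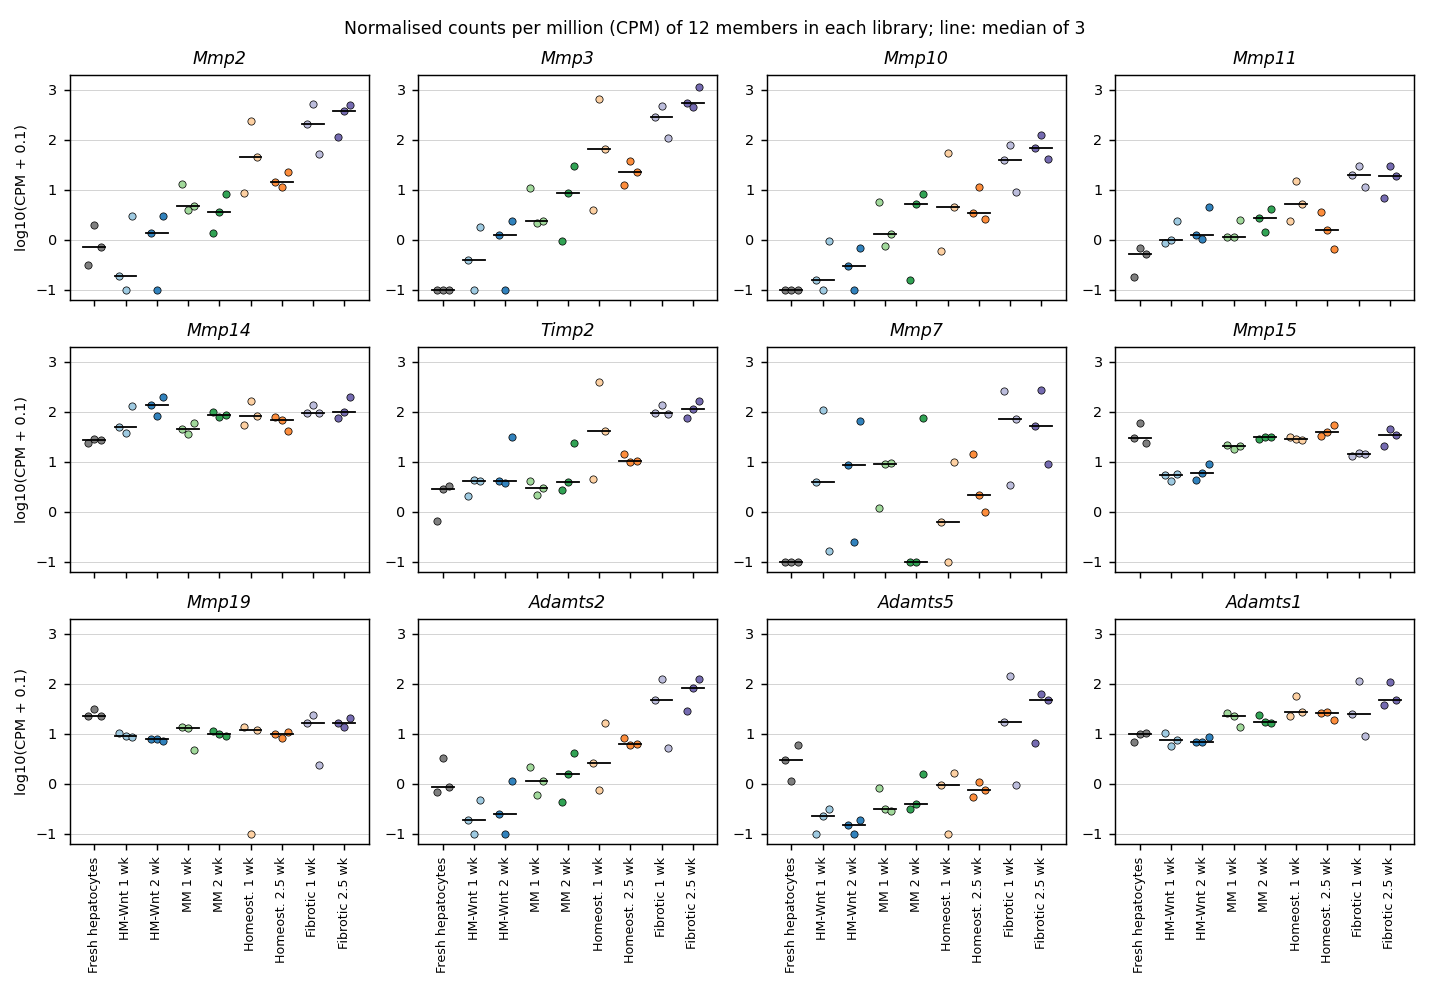
CPM after TMM scaling of 12 members in each of the 27 libraries, on a log10 axis of CPM + 0.1; each point is 1 library and the columns are the 9 conditions. The 3 fibrotic-like libraries at 2.5 weeks lie above the 3 homeostatic ones for Mmp2, Mmp3 and Timp2, and Mmp15 is lowest in HM-Wnt HepOrgs.

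Freshly isolated hepatocytes were first compared with HepOrgs, which asks which of these genes changed when hepatocytes were grown as organoids. Adamts13, Adamts7 and Mmp19 fell in all 4 HepOrg conditions, and Mmp24, Mmp28, Adamtsl4 and Adamtsl5 rose in all 4. Mmp15 fell in HM-Wnt by 2.94 ± 0.34 on the log2 scale at 1 week and by 2.59 ± 0.34 at 2 weeks, and in MM at 1 week by 0.93 ± 0.32 (log2 fold change ± SE). The stromelysins Mmp3 and Mmp10 rose in MM at both times. The 4 comparisons share the same 3 hepatocyte libraries.

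By edgeR's quasi-likelihood test with Benjamini-Hochberg adjustment over all 13405 genes at 0.05, HM-Wnt at 1 week had 5 of 32 members higher (24.9% of all genes) and 5 lower (24.8%). At 2 weeks in HM-Wnt 9 were higher (26.1% of all genes) and 5 lower (25.7%). In MM, 8 were higher (21.5%) and 5 lower (21.3%) at 1 week, and 10 higher (19.7%) and 3 lower (20.0%) at 2 weeks. The members' shares lay below those of all genes for each count of lower members and for the higher members in HM-Wnt at 1 week, and above them for the other three counts of higher members, and no test of these differences was made. Between 2 and 11 members per comparison passed the low-count filter through their HepOrg libraries only, and 2 to 4 through their hepatocyte libraries only. The counts of members called and the p values of such members are therefore a description.

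Adamts13, the protease that cuts von Willebrand factor, stood at 2.05, 3.33 and 3.93 CPM in fresh hepatocytes and at 0 to 0.243 CPM in all 12 HepOrg libraries, so the groups did not overlap. Its log2 fold change was -7.94 ± 1.53 in HM-Wnt at 1 week (adjusted p = 8.53e-04) and -6.75 ± 1.37 in MM at 2 weeks (adjusted p = 0.00167). Only 1 count in the 3 HM-Wnt 1-week libraries stood against 282 in the hepatocytes, a ratio of 251 (95% counting interval 44.6 to 9940). Adamts7, which cuts cartilage oligomeric matrix protein, stood at 12.8, 5.91 and 4.81 CPM in hepatocytes and at most 3.26 CPM in HepOrgs, and fell by 2.71 ± 0.69 on the log2 scale in HM-Wnt at 1 week (adjusted p = 0.00534). Adamts5, a proteoglycan-cutting aggrecanase, stood at 2.90, 1.05 and 5.97 CPM in hepatocytes and fell by 6.17 ± 1.28 in HM-Wnt at 2 weeks (adjusted p = 0.0013). In MM at 2 weeks its log2 fold change of -2.36 ± 1.00 did not pass (adjusted p = 0.0775), and without MM 2-week replicate 3 it was -3.65 and passed. In this fit Adamts13 and Adamts5 had 10 counts in every library of the hepatocytes only. They entered the test through the group where they are high, so their p values are a description.

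Many markers of other liver cells were also lower in HepOrgs. The endothelial marker sum was 40.6 to 194.9 CPM in fresh hepatocytes and 0.539 to 2.29 CPM in HepOrgs, and 7 of the 8 markers were tested and all 7 fell in each comparison. Clec4g, a marker of liver sinusoidal endothelium, was at 0 in 21 of the 24 cultured libraries and Kdr in 20. The immune marker sum was 51.9 to 530 CPM in hepatocytes and 19.0 to 20.3 CPM in HM-Wnt at 1 week, where 7 of 8 tested markers fell and 1 rose, and the Kupffer cell marker Clec4f was at 0 in all 24 cultured libraries. In the other comparisons 6 immune markers fell in HM-Wnt at 2 weeks, 5 in MM at 1 week and 3 in MM at 2 weeks, with 1 higher in each, and the sum of MM 2-week replicate 3 was above that of all 3 hepatocyte libraries. Of 5 stellate cell markers tested, 4 fell in MM at 2 weeks and 3 in each of the other comparisons, with medians from -3.15 to -4.93 on the log2 scale. Their sum overlapped, however, with 34.5 to 171.5 CPM in hepatocytes, 51.4 to 125.7 in HM-Wnt at 1 week and 40.4 to 192.9 at 2 weeks. It was 26.6 to 71.5 CPM in MM at 1 week and 14.5 to 49.5 at 2 weeks. Reln had 368 to 519 counts in hepatocytes and 478 to 2333 in HM-Wnt, and Ecm1 598 to 2292 and 699 to 4482. Of all genes, 20.0 to 25.7% fell in these comparisons. The part of these cell types in the fall of Adamts13, Adamts7 and Adamts5 was not tested.

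Mmp19, a stromelysin-like MMP, lies wholly within Tmem198b on the opposite strand. It stood at 22.1, 31.6 and 22.1 CPM in hepatocytes and at 4.68 to 13.6 CPM in HepOrgs, with no overlap, and fell by 1.51 ± 0.32 on the log2 scale in HM-Wnt at 1 week (adjusted p = 0.00166). Mmp15, another membrane-type MMP, stood at 29.2, 60.0 and 23.7 CPM in hepatocytes against 4.09 to 9.04 CPM in the 6 HM-Wnt libraries. In MM at 1 week its libraries stood at 21.7, 17.5 and 20.8 CPM and its adjusted p was 0.0309, which ranged from 0.0127 to 0.598 over the alternatives.

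Mmp24, a membrane-type MMP, had 0 counts in all 3 hepatocyte libraries and 0.387 to 6.78 CPM in the 12 HepOrg libraries. Against a floor of 3 counts per hepatocyte library it was at least 21.5-fold higher in HM-Wnt and at least 43.7-fold higher in MM at 1 week. Mmp28, or epilysin, had 2 counts in the 3 hepatocyte libraries together and 1.25 to 3.83 CPM in HepOrgs, a ratio of 128 (95% counting interval 35.1 to 1060) in HM-Wnt at 2 weeks. Mmp14 stood at 23.7, 28.3 and 27.1 CPM in hepatocytes and at 138, 80.3 and 196 CPM in HM-Wnt at 2 weeks, a rise of 2.35 ± 0.42 on the log2 scale (adjusted p = 4.21e-04).

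Adamtsl4 and Adamtsl5 rose as well, both known to bind fibrillin microfibrils. Adamtsl5 stood at 0.346, 1.40 and 0.517 CPM in hepatocytes and at 7.14 CPM or more in every HepOrg library, with log2 fold changes from 4.14 ± 0.60 in HM-Wnt at 1 week to 5.21 ± 0.62 in MM at 2 weeks. Adamtsl4 stood at 0.373, 0.788 and 1.16 CPM in hepatocytes and at 2.06 to 13.3 CPM in HepOrgs, again without overlap. Its log2 fold change was largest in MM at 1 week, 3.76 ± 0.44 (adjusted p = 2.29e-05). Adamtsl2, a fibrillin-binding protein that also binds a latent TGF-beta binding protein, had 65 counts in the hepatocytes and 0 in both HM-Wnt conditions, at least 9.15-fold lower at 1 week over a floor of 3 counts per library. Adamtsl1 had 55 counts in the hepatocytes, 44 of them in replicate 2, and 0 in HM-Wnt at 1 week. Both were below the filter on low counts and were not tested.

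Mmp3 was at 0 in all 3 hepatocyte libraries and at 10.7, 2.05 and 2.23 CPM in MM at 1 week and 0.830, 8.37 and 29.3 CPM in MM at 2 weeks. Against the floor of 3 counts per library it was at least 70.1-fold higher at 1 week, or 30.1-fold without replicate 1, and at least 180-fold higher at 2 weeks, or 64.8-fold without replicate 3. Mmp10, or stromelysin-2, was likewise at 0 in hepatocytes and stood at 5.65, 0.647 and 1.18 CPM in MM at 1 week, at least 35.1-fold higher, or 12.8-fold without replicate 1. Mmp11, or stromelysin-3, rose in MM at 2 weeks by 2.88 ± 0.81 on the log2 scale (adjusted p = 0.0121). Mmp7 was at 0 in the hepatocytes and had 3.77, 108 and 0.0648 CPM in HM-Wnt at 1 week and 0, 0 and 74.0 CPM in MM at 2 weeks, and did not pass in any of the 4 comparisons (adjusted p from 0.0552 to 0.14).

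Timp2 rose in HM-Wnt at 2 weeks by 2.54 ± 0.97 on the log2 scale (adjusted p = 0.0423, range 0.00815 to 0.457 over the alternatives). Its libraries there stood at 3.93, 3.70 and 31.2 CPM, so replicate 3 alone lay above 4 CPM, against 0.559, 2.80 and 3.13 CPM in hepatocytes. In MM at 2 weeks it stood at 2.62, 3.85 and 23.9 CPM, and its log2 fold change of 2.21 ± 0.96 did not pass (adjusted p = 0.0854). Adamts1, a proteoglycan-cutting ADAMTS, rose in MM by 1.20 ± 0.29 at 1 week and 1.09 ± 0.29 at 2 weeks. Adamts2, a procollagen N-proteinase, and Adamts9, a versican-cutting protease, did not pass in any of the 4 comparisons. Without hepatocyte replicate 3, the library with the MDR2-het label, 10 and 11 members were called in HM-Wnt at 1 and 2 weeks and 11 and 12 in MM, and the calls of Adamts17, Mmp3 and Timp2 in HM-Wnt at 2 weeks, Adamts5 and Mmp10 in MM at 1 week and Adamts15 in MM at 2 weeks were lost. The shares of all genes without that library are not given, so these counts only describe the members. With all 27 libraries in 1 fit, Adamts7 and Mmp19 passed in none of the 4 comparisons (highest adjusted p = 0.174 and 0.481), Adamts1 in neither MM comparison and Adamtsl4 only in MM at 1 week, whereas Adamts13, Mmp24, Mmp28 and Adamtsl5 kept their calls under every alternative that tested them. The call of Mmp15 in MM at 1 week was also lost without hepatocyte replicate 2 or without any 1 MM replicate, and those of Adamts7 in some comparisons without hepatocyte replicate 1 or HM-Wnt 2-week replicate 1.

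**Figure D3:**
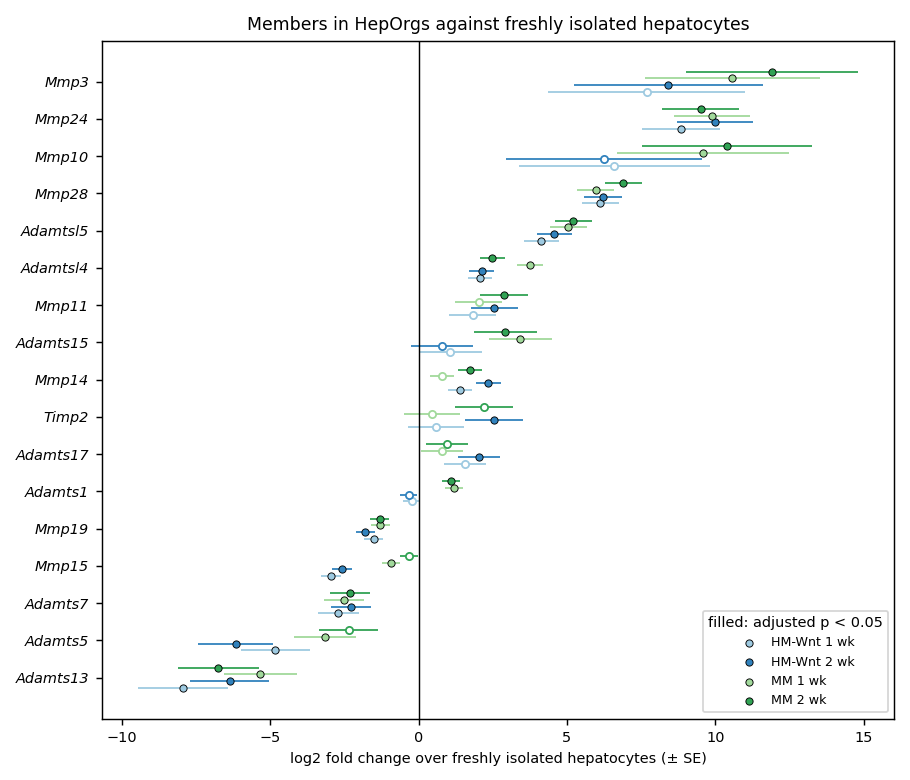
Log2 fold change ± SE of the 17 members called in at least 1 of the 4 comparisons of HepOrgs with freshly isolated hepatocytes, by edgeR. Adamts13, Adamts7 and Mmp19 lie below 0 and Mmp24, Mmp28, Adamtsl4 and Adamtsl5 above 0 in each comparison; fitted values of genes at 0 in hepatocytes (Mmp3, Mmp10, Mmp24) depend on the prior count.

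MM and HM-Wnt HepOrgs were compared next, which asks whether the medium changed these genes at matched times. MM HepOrgs had more Mmp15, Adamts1 and Adamtsl4, and no member passed as lower in MM. At 1 week 3 of 28 members were higher (1.76% of 12989 genes) and 0 lower (1.22%). At 2 weeks 2 were higher (6.84%) and 0 lower (4.61%), and averaged over both times 9 were higher (11.5%) and 0 lower (10.0%). The replicate numbers paired the HepOrg libraries, and with the replicate as a block 13 members were higher over both times (15.2% of all genes), with Adamtsl5, Mmp23, Mmp2 and Adamts2 added. Under the same block 3 of the 9 mesenchyme markers were higher in MM, with a median log2 fold change of 2.17, against 0 of 9 and a median of 1.68 without it, and their part in the members' levels was not tested. At an unadjusted p under 0.05, 1 member, Adamts17, was lower over both times (log2 fold change -0.95 ± 0.37).

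Mmp15 stood at 5.40, 4.09 and 5.59 CPM in HM-Wnt at 1 week and 4.26, 5.96 and 9.04 CPM at 2 weeks. In MM it stood at 21.7, 17.5 and 20.8 CPM at 1 week and 27.8, 30.4 and 31.5 CPM at 2 weeks, so all 6 MM libraries lay above all 6 HM-Wnt libraries. The log2 fold change over both times was 2.14 ± 0.18 (adjusted p = 7.08e-05, 6.06e-04 or lower over all alternatives).

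Adamts1 did not overlap either, with 5.64 to 10.3 CPM in the 6 HM-Wnt libraries and 13.5 to 26.2 CPM in the 6 MM libraries, a log2 fold change of 1.43 ± 0.21 (adjusted p = 0.00115, range 4.34e-09 to 0.14). Adamtsl4 was 2.06 to 4.41 CPM in HM-Wnt and 8.95, 9.60 and 13.3 CPM in MM at 1 week, whereas its MM libraries of 5.47, 2.56 and 4.92 CPM overlapped with HM-Wnt at 2 weeks. The change of its medium effect between the times was -1.30 ± 0.46 on the log2 scale and did not pass (adjusted p = 0.671), and 0 of 28 members passed that test (0% of all genes, edgeR), with Adamtsl4 alone at an unadjusted p under 0.05.

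Mmp3, Mmp10 and the collagenase Mmp8 passed over both times with log2 fold changes of 3.19 ± 1.04, 3.55 ± 1.14 and 4.19 ± 1.27, together with Adamts5, Adamts14 and Adamts15. Adamts14 is a procollagen N-proteinase and Adamts15 a proteoglycan-cutting protease. Without MM 2-week replicate 3, the library with the high immune marker sum, 5 of 29 members passed over both times, and Mmp3, Mmp10, Mmp8 and Adamts5 were lost. The share of all genes in that fit is not given. That library held 1035 of the 1437 Mmp3 counts of its condition, all but 2 of the Mmp12 counts and all 228 Mmp9 counts (Mmp12, macrophage elastase, and Mmp9, gelatinase B, were named after their values were seen for this library). Its Mmp12 level was 51.3 CPM, and the part of immune cell RNA in these values was not tested.

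The count over both times was also 4 or 5 without any 1 of HM-Wnt 1-week replicates 1 or 2, HM-Wnt 2-week replicates 1 or 2, or MM 1-week replicates 1 or 2. At 1 week it was 1 without HM-Wnt replicate 2 or 3 or MM replicate 1 or 2, and at 2 weeks 1 without replicate 1 of either medium. The shares of all genes in these fits are not given, so the counts only describe the members. Timp2 differed between media by -0.24 ± 0.64 on the log2 scale over both times (adjusted p = 0.823), and Mmp7 by -1.24 ± 1.64 (adjusted p = 0.629).

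Fibrotic-like and homeostatic assembloids, which differ in the number of mesenchymal cells added, were then compared at 1 and 2.5 weeks. At 2.5 weeks most members were at higher levels in fibrotic-like assembloids, among them Mmp3, Mmp2 and Timp2, but no member passed the test when all 12 assembloid libraries were fitted together. edgeR called 0 of 37 members at 1 week (0% of 14255 genes), 0 at 2.5 weeks (0%) and 0 over both times (0%). At an unadjusted p under 0.05 there were 10, 13 and 22 members (2012, 944 and 2678 of all genes), and DESeq2 called 5 of 48 members at 1 week (4.44% of its genes), 8 at 2.5 weeks (1.62%) and 17 over both times (9.67%). Of the 37 members tested, 17 at 1 week and 6 at 2.5 weeks had 10 counts in every library of the fibrotic-like side only.

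The fit depended on homeostatic 1-week replicate 2. Without it, edgeR called 0 members at 1 week (17 at an unadjusted p under 0.05) and 20 of 41 members higher over both times (16.2% of 14748 genes) and 1, Mmp15, lower (13.4%). A fit that weights each library by its quality (voom, chosen after seeing the data) gave that library a weight of 0.0064 and called 21 of 37 over both times (33.2% of genes). Without fibrotic-like 1-week replicate 3, edgeR called 0 of 40 over both times, with 24 at an unadjusted p under 0.05. When the 2 groups at 2.5 weeks were fitted alone, 12 of 34 members were called, all higher (5.53% of genes). No share of all genes stands beside the counts at an unadjusted p in this paragraph, so they only describe the members.

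**Figure D4:**
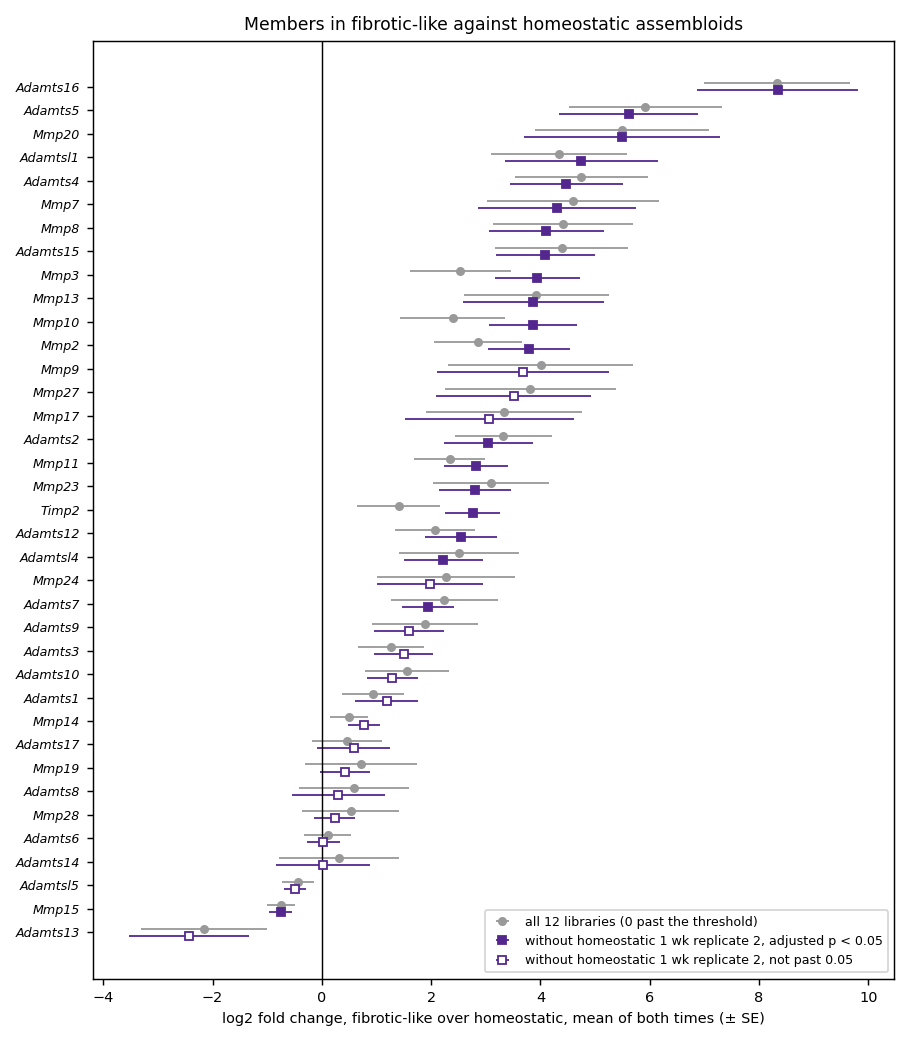
Log2 fold change ± SE of fibrotic-like against homeostatic assembloids over both times, from edgeR on all 12 assembloid libraries and without homeostatic 1-week replicate 2. Timp2 moves from 1.41 to 2.76 and Mmp3 from 2.53 to 3.94 when that library is left out, and Mmp15 stays below 0 in both.

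The levels were also compared without a model. At 2.5 weeks, in 22 of the 37 members all 3 fibrotic-like libraries lay above all 3 homeostatic ones, against 21.7% of all genes, and 0 members lay below (15.3% of all genes). At 1 week 7 lay above (18.6% of all genes) and 2 below (5.29%). With CPM not TMM-scaled, 24 lay above at 2.5 weeks, against 35.9% of all genes. At both times, without homeostatic 1-week replicate 2, this held for 8 members (9.29% of all genes), namely Adamts4, Adamts12, Adamts16, Mmp2, Mmp3, Mmp11, Mmp24 and Timp2. With that library it held for 3, Adamts4, Adamts16 and Mmp24 (5.70% of all genes).

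Mmp2 stood at 13.9, 11.2 and 22.2 CPM in homeostatic and 114, 378 and 482 CPM in fibrotic-like assembloids at 2.5 weeks, with no overlap. At 1 week it stood at 8.51, 237 and 44.4 CPM against 208, 520 and 50.2 CPM, and homeostatic replicate 2 with 237 CPM lay inside the fibrotic-like range. Its log2 fold change over both times was 2.85 ± 0.81 with all libraries (adjusted p = 0.115) and 3.79 ± 0.74 without homeostatic replicate 2 (adjusted p = 0.0113).

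Mmp3, which cuts many matrix proteins and activates other pro-MMPs, stood at 12.2, 36.5 and 22.2 CPM in homeostatic and 547.5, 446.7 and 1125 CPM in fibrotic-like assembloids at 2.5 weeks. At 1 week it stood at 3.77, 654.6 and 65.5 CPM against 283, 475 and 107 CPM, and the highest value of the 6 belonged to homeostatic replicate 2. Over both times the log2 fold change was 2.53 ± 0.92 (adjusted p = 0.172), and 3.94 ± 0.78 without that library (adjusted p = 0.0115).

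Timp2, the inhibitor that also takes part in the activation of pro-MMP2 by Mmp14, stood at 14.0, 9.79 and 10.3 CPM against 75.1, 115 and 161 CPM at 2.5 weeks. At 1 week it stood at 4.30, 392 and 40.9 CPM in homeostatic and 93.2, 134 and 89.9 CPM in fibrotic-like assembloids. At 1 week the log2 fold change was -0.52 ± 1.06 with all libraries and 2.18 ± 0.74 without homeostatic replicate 2, and neither passed by edgeR (adjusted p = 0.865 and 0.0806), whereas voom with library weights gave 2.29 ± 0.63 (adjusted p = 0.0325). Over both times the log2 fold change was 1.41 ± 0.76 (adjusted p = 0.362), and 2.76 ± 0.51 without homeostatic replicate 2 (adjusted p = 0.0103). Mmp14 stood at 78.2, 66.5 and 41.8 CPM against 73.9, 96.6 and 196 CPM at 2.5 weeks, and its groups overlapped (0.50 ± 0.34 over both times, adjusted p = 0.5).

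Some other members of the chromosome 9 cluster were also higher at 2.5 weeks. Mmp10 stood at 3.25, 11.2 and 2.42 CPM in homeostatic and 66.8, 122 and 41.3 CPM in fibrotic-like assembloids at 2.5 weeks, and the collagenases Mmp8 and Mmp13 did not overlap at that time. Mmp27, which has no AP-1 letters in its window, did not overlap either, with 2 counts in homeostatic and 391 in fibrotic-like assembloids. Together the 10 cluster genes took 10.9 to 19.7% of all member counts in the 3 homeostatic libraries at 2.5 weeks and 43.8 to 60.4% in the 3 fibrotic-like ones. At 1 week these shares overlapped, with 3.17, 43.7 and 21.5% against 49.2, 30.9 and 35.9%. Mmp3 was a large part of the cluster at 2.5 weeks, with 547.5 of 686.8, 446.7 of 877 and 1125 of 1206 CPM in fibrotic-like assembloids. In homeostatic ones it was 12.2 of 32.3, 36.5 of 53.0 and 22.2 of 25.7 CPM. Mmp7 spread widely within the fibrotic-like assembloids, with 257, 3.32 and 70.5 CPM at 1 week and 51.7, 274 and 8.81 CPM at 2.5 weeks, and overlapped with the homeostatic ones. Mmp9 reached 6.79 CPM at most in any assembloid, in fibrotic-like 1-week replicate 3.

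Among ADAMTS genes, the proteoglycan-cutting Adamts5 stood at 0.432, 0.965 and 0.658 CPM in homeostatic and 6.52, 62.2 and 47.5 CPM in fibrotic-like assembloids at 2.5 weeks, and 4 of the 7 members of that role were higher without homeostatic 1-week replicate 2. Adamts2, the procollagen N-proteinase, stood at 7.93, 5.95 and 6.13 CPM against 28.2, 82.4 and 123 CPM. Adamts16 had 0 counts in the 6 homeostatic libraries and 199 counts at 1 week and 99 at 2.5 weeks in the fibrotic-like ones, at least 13.6-fold and at least 9.18-fold higher over a floor of 3 counts per library, the latter 4.98-fold without replicate 3. Adamts7 and Adamts9 did not overlap at 2.5 weeks, with 1.01 to 1.99 against 3.12 to 8.54 CPM and 0.349 to 0.864 against 2.04 to 5.97 CPM.

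Adamts13 remained at 0.868 CPM or less at 2.5 weeks, with overlapping groups. Mmp19 stood at 8.29 to 10.7 CPM against 13.7 to 20.5 CPM at 2.5 weeks, and its log2 fold change over both times of 0.72 ± 1.03 did not pass (adjusted p = 0.807). Adamtsl1 was higher over both times without homeostatic replicate 2, by 4.75 ± 1.40 on the log2 scale, and Adamtsl4 by 2.22 ± 0.72. Adamtsl5 had a log2 fold change of -0.50 ± 0.21 there (adjusted p = 0.0903). Adamtsl2 was near the floor, with 33 counts in the fibrotic-like libraries at 2.5 weeks, 21 of them in replicate 3, and 0 in the homeostatic ones. At 1 week it had 0, 7 and 0 counts in fibrotic-like against 3, 0 and 14 in homeostatic assembloids.

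Mmp15 was the member that edgeR called lower in fibrotic-like assembloids, over both times without homeostatic 1-week replicate 2. At 1 week its 3 fibrotic-like libraries at 12.7, 14.8 and 14.1 CPM lay below the homeostatic ones at 31.4, 28.3 and 26.4 CPM, and at 2.5 weeks 20, 43.8 and 33.2 CPM overlapped with 31.8, 38.5 and 53.6 CPM. The log2 fold change over both times was -0.75 ± 0.26 (adjusted p = 0.158), and -0.76 ± 0.21 without homeostatic 1-week replicate 2 (adjusted p = 0.0272). Adamtsl5 also lay below without overlap at 1 week, with 8.89, 12.7 and 9.92 CPM in fibrotic-like against 13.55, 13.6 and 21.65 CPM in homeostatic assembloids.

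The summed RNA of mesenchyme markers was also higher in fibrotic-like assembloids at 2.5 weeks. The sum of 9 mesenchyme markers was 175 to 255.6 CPM in homeostatic and 1122 to 4457 CPM in fibrotic-like assembloids at 2.5 weeks. Without homeostatic 1-week replicate 2, 8 of the 9 passed as higher over both times (16.2% of all genes), against 0 of 9 with it. Per 100 CPM of that sum, Mmp2 was 4.39 to 11.5 CPM in homeostatic and 9.40 to 10.8 CPM in fibrotic-like assembloids at 2.5 weeks, and these ratios overlapped. The same ratio overlapped for Mmp3 (6.97 to 14.3 against 11.1 to 48.8), Timp2 (3.83 to 7.98 against 2.85 to 6.70) and Adamts2 (2.33 to 4.53 against 2.05 to 2.75). It was formed for no other member, so it does not describe the rest of the family. RNA of the GFP reporter of the mesenchymal cells did not follow the marker sum closely. At 2.5 weeks it stood at 0.451, 0.677 and 25.6 CPM in homeostatic and 11.5, 36.7 and 173.6 CPM in fibrotic-like assembloids, with overlap. Fibrotic-like 1-week replicate 3 had the lowest marker sum of its condition, 660 CPM, and the highest GFP, 557.7 CPM. Without homeostatic 1-week replicate 2, 0 of the 2 reporters passed over both times. The cholangiocyte marker sums at 2.5 weeks were 131 to 246 CPM against 721 to 4261 CPM, and the part of each cell type in the members' levels was not tested.

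**Figure D5:**
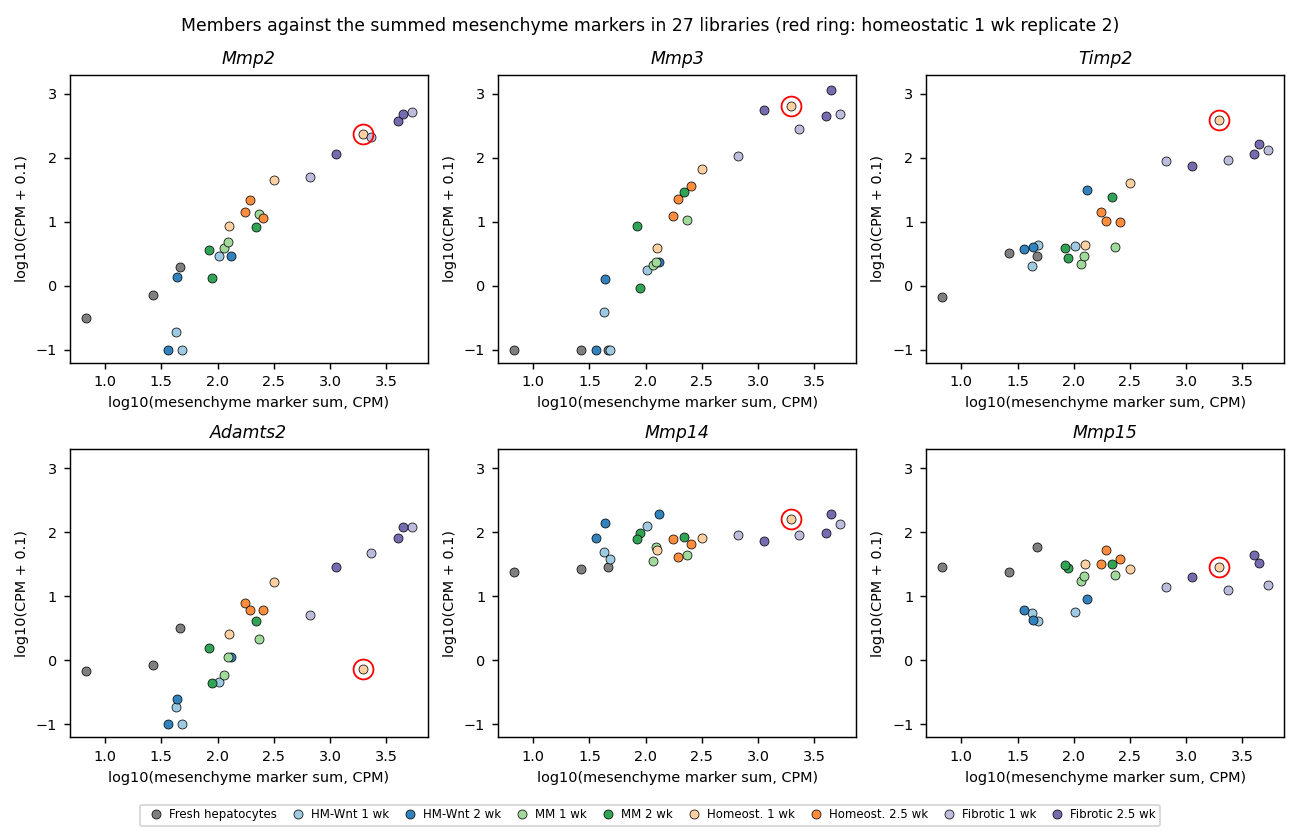
CPM of 6 members (vertical, log10 of CPM + 0.1) against the summed CPM of 9 mesenchyme markers (horizontal, log10) in each of the 27 libraries, coloured by condition, with homeostatic 1-week replicate 2 ringed in red. Libraries with a larger marker sum have more Mmp2, Mmp3, Timp2 and Adamts2; the points are libraries of 9 conditions that differ in cell content, and no test was made.

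No change between 1 and 2.5 weeks passed. In homeostatic assembloids 0 of 37 members passed (0% of genes), and in fibrotic-like ones 0 (0%), and the change of the fibrotic-like effect with time was called for 0 (0%). At an unadjusted p under 0.05 there were 3 members in homeostatic assembloids, Timp2, Mmp2 and Mmp3, whose fall rests on homeostatic 1-week replicate 2, 1 in fibrotic-like ones, Mmp15 with 1.24 ± 0.37, and 2 for the change of the effect, Timp2 and Mmp3. The share of all genes at that unadjusted p is not given here.

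Assembloids were lastly compared with HepOrgs in the same medium at 1 week, which asks what the added cholangiocytes and mesenchyme brought. The fibrotic-like assembloids had more Mmp2, Mmp3, Timp2 and Adamts2 in every library than MM HepOrgs. edgeR called 0 of 38 members in homeostatic (0% of 14388 genes) and 0 in fibrotic-like assembloids (0.751% of genes), with 6 and 20 members at an unadjusted p under 0.05 and 6 (4.75% of its genes) and 18 (11.3%) of 48 by DESeq2. Fitted on the 2 groups alone, 16 of 31 members were called in fibrotic-like assembloids, all higher (25.5% of genes in either direction). Without homeostatic 1-week replicate 1, 4 members were higher (7.00% of genes) and 2 lower (1.67%) in homeostatic assembloids, and without replicate 2 edgeR called 0 of 40, with 4 at an unadjusted p under 0.05. Without fibrotic-like replicate 3 it called 0 of 40 in fibrotic-like assembloids, with 21 at an unadjusted p under 0.05. The share of all genes at an unadjusted p is not given for these comparisons, so those counts only describe the members. The median log2 fold change in fibrotic-like assembloids was 4.41 for mesenchyme markers, 3.80 for cholangiocyte markers and -2.06 for hepatocyte markers, of which 0 passed by edgeR, and their part in the members' levels was not tested.

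Timp2 stood at 4, 2.08 and 2.86 CPM in MM HepOrgs and 93.2, 134 and 89.9 CPM in fibrotic-like assembloids, a log2 fold change of 5.11 ± 1.25 (adjusted p = 0.0575). Mmp2 stood at 13.0, 3.80 and 4.66 CPM against 208, 520 and 50.2 CPM (5.14 ± 1.23, adjusted p = 0.055). Mmp11 stood at 1.01, 1.02 and 2.33 CPM against 19.7, 29.3 and 11.1 CPM (3.75 ± 0.90, adjusted p = 0.055). In these members the groups did not overlap, and 19 of the 38 members lay above in this way (27.1% of all genes). Another 2 members, Mmp15 and Adamtsl5, were lower in every fibrotic-like library than in every MM HepOrg library (22.1% of all genes).

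Other genes of matrix proteolysis that are no members were read from a list of 33 activators, inhibitors, receptors and related proteases. Against fresh hepatocytes, 11 of 28 tested rose (24.9% of all genes) and 9 fell (24.8%) in HM-Wnt at 1 week. At 2 weeks 9 rose (26.1%) and 7 fell (25.7%). In MM, 10 rose (21.5%) and 7 fell (21.3%) at 1 week, and 11 rose (19.7%) and 8 fell (20.0%) at 2 weeks. No test of the list against these shares was made, so its counts are a description. The plasminogen activator Plat rose by 8.87 ± 0.85 to 9.63 ± 0.86 on the log2 scale over the 4 comparisons, the urokinase receptor Plaur by 4.59 ± 0.52 to 5.14 ± 0.53, and Bsg, an inducer of MMPs, by 1.93 ± 0.33 to 3.04 ± 0.35. Plasminogen itself (Plg) fell by 2.12 ± 0.54 in HM-Wnt at 1 week and Furin, which activates membrane-type MMPs, by 1.71 ± 0.23.

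Between media, 4 of the 28 were higher (11.5% of all genes) and 6 lower (10.0%) in MM over both times. Reck, a membrane-bound MMP inhibitor, was lower with a log2 fold change of -1.16 ± 0.24, whereas Furin was higher by 0.51 ± 0.15. In assembloids edgeR called 0 of 32 with all 12 libraries (0% of all genes). Without homeostatic 1-week replicate 2, 13 of 32 were higher (16.2% of all genes) and 2 lower (13.4%) in fibrotic-like assembloids over both times. Higher were Serpine2 with 3.16 ± 0.49, Adam12 with 3.45 ± 0.61, the collagenolytic cathepsin Ctsk with 2.87 ± 0.62 and Reck with 1.44 ± 0.47. Of 11 ADAMTS substrate genes 8 were tested there and 6 were higher (16.2% of all genes). Vcan was at 3.45 ± 0.69 and Col1a1, which is also one of the mesenchyme markers, at 3.81 ± 0.75. These counts were not tested against the shares of all genes.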

How the data were processed

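Reads of SMART-seq2 libraries were aligned with STAR to GRCm39 and counted per gene by the authors, who deposited raw counts and TPM for each gene and library. The deposited counts of 27 libraries were used, and 10 libraries of the same table were not used here. Depth was 30289364 to 65348596 counts per library, and intervals cover counting error only. The deposited TPM values rest on a length within 5% of the whole gene span for 80.8% of genes, so levels between genes were recomputed from counts per exon length (exon TPM). The authors' TPM served as an alternative only.

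Counts were fitted with edgeR 4.0.16 in R 4.3.3 (TMM, quasi-likelihood test, filter at 10 counts and 15 in total) with Benjamini-Hochberg adjustment over all genes at 0.05. Fresh hepatocytes with HepOrgs, HepOrgs alone, assembloids alone, and the 18 libraries cultured in MM (12 assembloid, 6 HepOrg) were fitted as 4 sets, the last for the comparisons of 1-week assembloids with 1-week MM HepOrgs. DESeq2 1.42.0, limma 3.58.1 on log2(TPM + 1), other filters, a replicate block, all 27 libraries in 1 fit and each library left out were alternatives. Fold bounds without 1 library were added after seeing the data. Same-numbered HepOrg libraries deviated together in 18 of 18 pairs (correlation 0.127 to 0.503), so the numbers pair them.

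Members with at least 10 counts in every library of a condition, and 21 members always described, could be named with values. Members and lists were chosen with earlier results of these data known. On simulated data edgeR recovered 24.2% of genes changed by 4 on the log2 scale between assembloids at 2.5 weeks (13970 genes), and 92.4% between MM at 1 week and hepatocytes (13215 genes). In each simulation 66 genes were changed by that size and most genes not at all, so recovery in the real comparisons may differ.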

Additional observations from a re-analysis of the deposited data

How the results depend on the processing

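Counts of members called moved by over 1.5 times as follows. For fibrotic-like against homeostatic assembloids at 1 week, 0 became 3 with all 27 libraries in 1 fit, 4 with log2(TPM + 1), 5 with DESeq2 and 8 with voom sample weights, which were chosen after seeing the data. At 2.5 weeks 0 became 8 with DESeq2 and 12 with voom or with the 2 groups alone. Over both times 0 became 13 with 27 libraries, 15 with TPM, 17 with DESeq2 and 21 with voom, and 0 to 21 with a library left out, where 21 needs homeostatic 1-week replicate 2 removed. Against hepatocytes, a filter of 10 counts in every library called 6 (1 week) and 7 (2 weeks) in HM-Wnt and 6 in MM at either time, TPM called 5 and 6 in HM-Wnt and 8 in MM at 1 week, 27 libraries gave 7 for MM at 1 week and DESeq2 gave 17 for HM-Wnt at 1 week. Between media at 1 week, 27 libraries gave 0, the 2 groups alone 1 and leaving out a library 1 to 3. At 2 weeks these were 1, 4 and 1 to 2, and DESeq2 gave 5. Over both times the stricter filter gave 3, 27 libraries 1, TPM 3 and leaving out a library 4 to 12. Homeostatic assembloids against MM HepOrgs gave 1 with 27 libraries, 6 with DESeq2 and 0 to 6 with a library left out. Fibrotic-like ones gave 6 with the stricter filter, 7 with 27 libraries, 16 with TPM or the 2 groups alone, 18 with DESeq2 and 27 with voom. The replicate block called 4, 3 and 13 members between media, 12, 14, 14 and 13 against hepatocytes and 0 in each assembloid comparison, where 6 of 18 same-numbered pairs deviated together. No member called against hepatocytes or between media changed sign. Among results that did not pass, Timp2 between assembloids at 1 week moved from -0.52 to 2.18 without homeostatic 1-week replicate 2 and passed with voom (2.29). The shares of all genes under most of these alternatives are not given here, so the counts do not set the members apart from all genes. The causes of these shifts were not tested.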
